A study of Mus musculus with 6 samples.

Results

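The genes examined were 42 genes of antigen presentation and of the interferon response, out of 34632 loci measured in the mouse brainstem. They were taken by gene name from the assembled annotation and grouped by role. Of them, 11 belong to the class I pathway, 6 to the class II pathway, 4 are transcription factors of interferon signalling, 9 are interferon-induced GTPases and 12 are effectors best known from the response to type I interferon. All 42 names were found, 41 of them as written and *Ifi27* under the older name *Ifi27l1*. The genes were proposed with their genotype differences in these libraries already known, so every count over them is a description and supports nothing by itself. Adjusted p-values come from a fit over the whole table. Where a name lay on several loci the one with the most fragments was to be taken, which was the case for *Ciita* alone and is described with that gene. In 3 cases the locus also carries another gene, so that *Tapbp* is counted together with *Zbtb22*, *Cd74* with the microRNA gene *Mir5107* and *Irf9* with *Rnf31*.

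RNA was sequenced from brainstems of mice at postnatal day 21 (P21), in 6 libraries that each came from a pool of 3 brainstems. All animals were homozygous for a floxed allele of the homeobox gene *Hoxa5* and received tamoxifen daily from P1 to P4. The 3 control pools (Hoxa5flox/flox;CMV-CreERT2-/-) carried no Cre, and the 3 conditional knockout (cKO) pools (Hoxa5flox/flox;CMV-CreERT2+/-) carried a tamoxifen-dependent Cre recombinase. The transgene is driven by the CMV promoter and not by a promoter of 1 cell type, and the animals had a mixed background of mostly 129/Sv with smaller parts of C57BL/6 and DBA/2. The deposited table numbers the libraries of each genotype, and these numbers could not be tied to single pools. Controls came from the litters of the mutants, and p-values measure only the spread between these pools.

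Class I molecules present peptides from inside the cell on nearly every cell type. The proteasome subunits *Psmb8*, *Psmb9* and *Psmb10* cut the peptides, *Tap1* and *Tap2* carry them into the endoplasmic reticulum, *Tapbp* helps to load them, and B2m is the light chain that all class I heavy chains share. Class II molecules present peptides from outside the cell, mainly on professional antigen-presenting cells, with *Cd74* as the invariant chain and *Ciita* as the master activator. Interferons induce both pathways. Type II interferon (interferon gamma) acts on gamma-activated sites and is a strong inducer of class II genes and of the guanylate-binding and immunity-related GTPases, which attack intracellular pathogens. Type I interferons act mainly through a complex that holds Stat2 and Irf9, on interferon-stimulated response elements and induce antiviral genes such as *Ifit1* and *Rsad2*. In the healthy brain most of these genes are at low levels.

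The libraries held 12034613 to 13202707 fragments, and levels are given as CPM, the fragments of a locus relative to a library size scaled by the TMM method. The locus of *Hoxa5*, which also carries *Hoxa6* and 2700086A05Rik, had 16.5, 27.4 and 5.82 CPM in the libraries labelled control and 23.3, 4.37 and 4.97 CPM in those labelled cKO. It thus did not follow the labels, and every direction given here rests on them. Over 4 Y-linked genes, cKO replicate 1 had 3 fragments in all, against 1069 to 1734 in the other 5 libraries. None of these 4 was called, and for 2 of them all 3 cKO libraries lay below all controls, against 6.54% of all loci. *Xist*, the gene of X inactivation, had 367, 373 and 341 CPM in the controls and 544, 409 and 448 CPM in the cKO libraries. It was 1 of the 6 loci called higher under the cKO label (log2 fold change 0.37). The part of sex in the values given here was not tested. Of the markers of granule neurons and of Purkinje cells of the cerebellum, 6 of 7 and 5 of 6 passed the edgeR test with lower levels under the cKO label. Their summed levels were 324 to 600 CPM and 152 to 252 CPM in the controls, and 138 to 164 CPM and 83.6 to 94.4 CPM in the cKO libraries. The 9 markers of brainstem neurons were present in all libraries. They summed to 317 to 377 CPM in the controls and to 399, 324 and 404 CPM in cKO replicates 1, 2 and 3, all 9 had a log2 fold change above 0, and none was called. The library labelled cKO replicate 3 stood furthest from the others over all loci, with a chi-square per degree of freedom of 4.53 to 8.86 in its pairs, against 2.13 to 3.92 in pairs without it.

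Promoter sequences were read for the 250 bases before the RefSeq start (GRCm38.p6), for the 30 of 42 genes with an entry. Motifs were searched on both strands as plain letters: GAAANNGAA for the core of the interferon-stimulated response element, TTCNNNGAA for the gamma-activated site and ATTGG for the Y box of class I and class II promoters. The motifs can overlap, since both interferon motifs may use the same GAA. The response element core was found in 6 of 6 GTPase promoters and 6 of 8 promoters of type I effectors, but in 2 of 9 class I and 0 of 3 class II promoters, against 7.13% of all 32851 promoters of this length. The gamma-activated site was found in 3 of 6 GTPase promoters, 1 of 8 promoters of type I effectors, 1 of 9 class I and 0 of 3 class II promoters, against 7.02% of all promoters. The Y box was found in 7 of 9 class I and 2 of 3 class II promoters, and in 1 of 8 promoters of type I effectors, against 33.9% of all promoters. The windows of *Psmb9* and *Tap1*, which lie head to head, overlap. Each match is a match of letters and no measure of binding. Only these exact letters were searched. A window without a match can thus still hold a variant of an element, and the counts do not show that an element is absent.

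The promoters of *H2-K1* (chr17:34000334-34000583, minus strand), *H2-D1* (chr17:35262844-35263093, plus strand), *H2-Eb1* (chr17:34305617-34305866, plus strand), *Igtp* (chr11:58199306-58199555, plus strand) and *Ifit1* (chr19:34640639-34640888, plus strand) are shown, all 5′ to 3′ and ending at the base before the start. They represent class I, class II, the GTPases and the type I effectors, and *H2-K1* is the only one of the 42 genes called between the genotypes. Capitals mark the 3 motifs.
H2-K1: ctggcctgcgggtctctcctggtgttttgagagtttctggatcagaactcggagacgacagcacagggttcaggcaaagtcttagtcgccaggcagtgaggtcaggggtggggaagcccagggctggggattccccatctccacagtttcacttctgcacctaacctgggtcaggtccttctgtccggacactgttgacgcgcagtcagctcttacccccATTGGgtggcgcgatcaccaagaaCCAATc
H2-D1: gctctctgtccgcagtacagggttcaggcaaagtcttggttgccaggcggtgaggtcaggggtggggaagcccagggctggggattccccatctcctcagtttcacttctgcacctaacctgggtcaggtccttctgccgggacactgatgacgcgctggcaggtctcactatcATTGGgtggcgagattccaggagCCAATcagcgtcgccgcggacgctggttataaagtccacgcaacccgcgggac
H2-Eb1: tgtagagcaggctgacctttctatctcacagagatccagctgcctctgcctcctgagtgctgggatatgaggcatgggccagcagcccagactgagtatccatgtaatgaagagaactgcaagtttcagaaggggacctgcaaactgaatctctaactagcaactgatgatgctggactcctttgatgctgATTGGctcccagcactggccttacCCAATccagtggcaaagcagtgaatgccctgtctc
Igtp: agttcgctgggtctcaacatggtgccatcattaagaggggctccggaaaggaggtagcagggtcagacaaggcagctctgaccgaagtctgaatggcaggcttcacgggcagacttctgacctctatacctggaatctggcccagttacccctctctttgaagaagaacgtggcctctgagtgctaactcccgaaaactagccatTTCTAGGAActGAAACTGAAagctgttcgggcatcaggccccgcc
Ifit1: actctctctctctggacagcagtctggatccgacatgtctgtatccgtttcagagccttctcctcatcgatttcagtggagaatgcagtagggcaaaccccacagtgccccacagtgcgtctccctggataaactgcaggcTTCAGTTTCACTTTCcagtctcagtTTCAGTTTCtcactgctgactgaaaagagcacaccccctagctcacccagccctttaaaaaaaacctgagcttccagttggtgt

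The windows of the class I genes *H2-K1* and *H2-D1* share an unbroken run of 47 bases, and each carries a pair of Y boxes, 1 on either strand, as does that of the class II gene *H2-Eb1*. Those of *H2-K1* and *H2-D1* also both hold cagtttcacttctg. On its other strand the parts of the response element core stand in the opposite order, so the search left it unmarked. In the window of *Igtp* a gamma-activated site and a response element core stand 2 bases apart. The window of *Ifit1* carries 3 response element cores, 2 of which overlap. *Cd74*, *Gbp4* and *Iigp1*, which come up below, had no entry among these promoters.

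Levels of different genes were compared as FPKM, which is scaled for transcript length. The light chain *B2m* was the most abundant of the 42 genes, with a mean of 51.6 FPKM over the 6 libraries, followed by the classical class I heavy chain *H2-D1* (27.1 FPKM) and by *Ifi27* (18.5 FPKM), an interferon-induced mitochondrial protein. Class I genes together summed to 121 ± 3.27 FPKM in the controls, against 33.5 ± 5.21 FPKM for the 12 type I effectors, 14.7 ± 1.53 FPKM for the 4 transcription factors, 10.7 ± 1.04 FPKM for the 9 GTPases and 8.19 ± 0.716 FPKM for the 6 class II genes (SD, n = 3). The lowest of the 42 genes was *Zbp1*, a nucleic acid sensor of cell death, with 0 to 4 fragments per library.

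Between the genotypes, 38 of the 42 genes could be tested by edgeR's quasi-likelihood test, adjusted by the Benjamini-Hochberg method over the 21854 loci that passed its filter on low counts. *H2-K1* alone passed an adjusted p of 0.05, and it was higher in the libraries labelled cKO. Of all loci, 0.0275% were called higher and 0.503% lower, and none of the 42 genes was called lower. At an unadjusted p of 0.05, 8 of the 38 genes (21.1%) were higher in the libraries labelled cKO and 0 were lower, against 2.91% and 4.03% of all loci. Their median log2 fold change was 0.20, and 32 of 38 were above 0, against a median of 0.0034 and 51.4% above 0 for all loci. All 3 cKO libraries lay above all 3 controls for 4 genes (*H2-K1*, *Cd74*, *Gbp3* and *Ifit1*), or 10.5% against 5.61% of all loci. They lay below all controls for *Irf9*, or 2.63% against 6.54% of all loci.

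**Figure D1:**
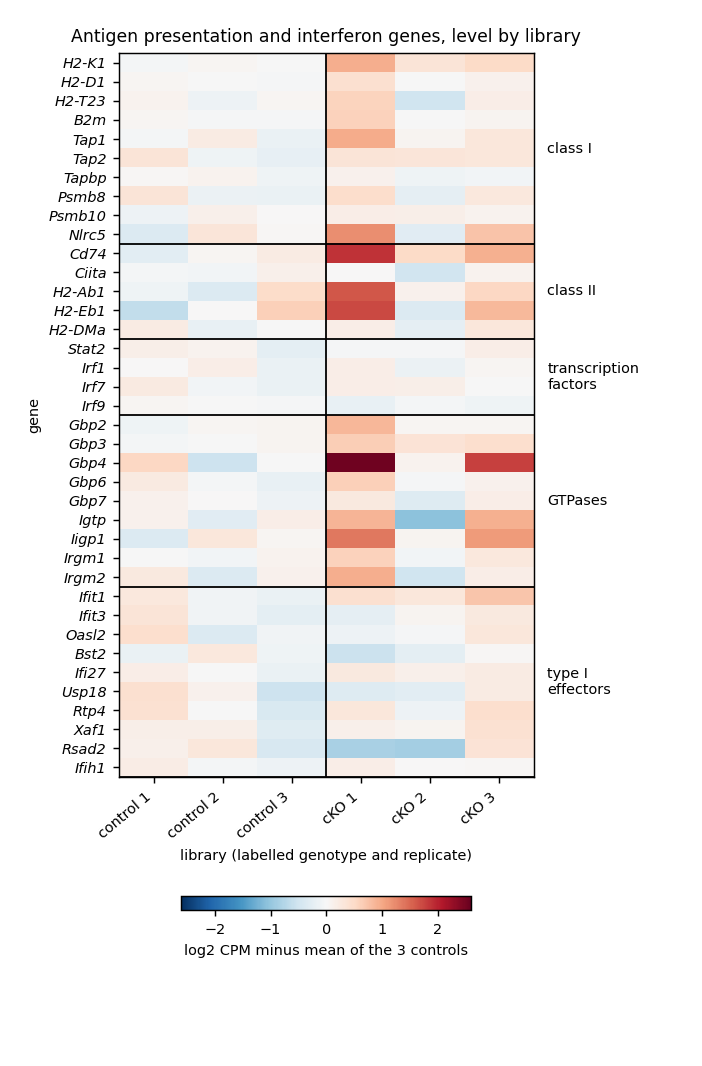
Level of each of the 38 tested genes (rows, grouped by role) by library (columns), as log2 CPM relative to the mean of the 3 control libraries, with red for higher and blue for lower. The library labelled cKO replicate 1 is above the control mean by more than 1 for 6 genes of class I, class II and the GTPases, up to 2.52 for *Gbp4*, and for none of the type I effectors.

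The libraries labelled cKO did not differ from the controls alike. *H2-Ab1*, *Gbp4* and others were highest in cKO replicate 1, second highest in cKO replicate 3, and near the controls in cKO replicate 2. *Cd74* had the same order of cKO libraries, but lay above all controls in cKO replicate 2 as well. Of the 38 tested genes, 22 had their highest CPM in cKO replicate 1, 7 in cKO replicate 3 and 0 in cKO replicate 2, against 19.9%, 19.7% and 15.7% of all loci. For 17 of 38 genes (44.7%) these 2 libraries, cKO replicates 1 and 3, held the 2 highest values, against 7.39% of all loci. The markers of brainstem neurons had these 2 libraries highest too, and their part was not tested. The counts by library were chosen after the values were seen and are a description.

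In the class I pathway, 9 of 10 tested genes had a log2 fold change above 0, with a median of 0.22. Of the 11 class I genes, 8 lie on chromosome 17, as do 4 of the 6 class II genes. The part of this shared position in their values was not tested. *H2-K1*, a classical class I heavy chain (chromosome 17, 33996012 to 34000333, mm10), had 14.9, 16.1 and 15.4 CPM in control replicates 1, 2 and 3 and 30.0, 19.6 and 21.8 CPM in the cKO replicates in the same order. The 3 cKO libraries all lay above the controls, and replicate 1 lay furthest. The means were 15.5 ± 0.611 CPM and 23.8 ± 5.47 CPM (SD, n = 3 each), a 1.53-fold difference with a log2 fold change of 0.61 ± 0.13 SE (edgeR adjusted p = 0.0388). The call was lost without any single library other than cKO replicate 2, with an edgeR adjusted p of 0.0562 to 0.212, and over all alternatives the adjusted p ran from 0.00107 to 0.545. Leaving out cKO replicate 1 gave a log2 fold change of 0.42 ± 0.10 SE (edgeR adjusted p = 0.0587).

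The other heavy chains among the 42 genes and the light chain had smaller log2 fold changes and overlapped between the genotypes. *H2-D1* (chromosome 17, 35263094 to 35267497) had 45.5, 43.3 and 42.5 CPM in the controls and 58.5, 43.6 and 47.4 CPM in the cKO libraries. Its log2 fold change was 0.19 ± 0.09 SE (edgeR adjusted p = 0.709), and 0.06 without cKO replicate 1. *B2m* (chromosome 2, 122147687 to 122153082) had 34.4, 32.7 and 32.6 CPM in the controls and 50.3, 33.0 and 35.1 CPM in the cKO libraries, so that replicate 1 alone stood clear of the controls. Its log2 fold change was 0.24 ± 0.12 SE (edgeR adjusted p = 0.722), and 0.03 without that library. *H2-T23*, a nonclassical class I heavy chain, had 4.97 to 5.82 CPM in the controls and 8.26, 3.76 and 6.16 CPM in the cKO libraries. The class I heavy chains are near-identical copies of each other in parts, and fragments may have been split among them, which makes each single heavy chain less certain than *B2m*.

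Among the tested class I genes, *Nlrc5* and *Tap1* had the largest ratio of highest to lowest library. *Tap1* had 2.46, 3.01 and 2.27 CPM in the controls and 5.18, 2.69 and 3.16 CPM in the cKO libraries (log2 fold change 0.50 ± 0.25 SE, edgeR adjusted p = 0.749). *Nlrc5*, the activator of class I genes, had 8, 14 and 12 fragments in the controls against 27, 9 and 20 fragments in the cKO libraries (log2 fold change 0.72 ± 0.40 SE, edgeR adjusted p = 0.803). Both were highest in cKO replicate 1 and within the control range in cKO replicate 2. *Tap2*, the partner of *Tap1*, had 5.06 to 7.54 CPM in the controls and 7.26 to 7.51 CPM in the cKO libraries. *Tapbp* had a log2 fold change of -0.03, *Psmb8* of 0.19 and *Psmb10* of 0.13, with adjusted p of 0.891 to 0.974 from edgeR. *Psmb9* was not tested, with 1, 1 and 4 fragments in the controls against 11, 5 and 4 in the cKO libraries.

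In the class II pathway the log2 fold changes of the tested chains and of the invariant chain were above those of the activator and the loading gene, a difference that was not tested. *Cd74*, the invariant chain (chromosome 18, 60803849 to 60812652), had 2.38, 3.01 and 3.40 CPM in the controls and 11.1, 4.14 and 5.61 CPM in the cKO libraries. All 3 cKO libraries lay above the controls, and replicate 1 was the highest by far. The means were 2.93 ± 0.517 CPM and 6.95 ± 3.67 CPM (SD, n = 3 each), which gave a log2 fold change of 1.23 ± 0.29 SE (edgeR adjusted p = 0.0826). Without cKO replicate 1 it was 0.73 ± 0.22 SE (edgeR adjusted p = 0.196). Without cKO replicate 2 it was 1.5 and passed the test (edgeR adjusted p = 0.016), and over all alternatives the adjusted p ran from 0.00231 to 0.653.

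The class II chains themselves had few fragments. *H2-Ab1*, the beta chain of I-A, had 11, 9 and 19 fragments in the controls against 40, 14 and 19 fragments in the cKO libraries. The beta chain of I-E, *H2-Eb1*, had 5, 9 and 16 fragments in the controls against 33, 7 and 18 fragments in the cKO libraries. In both, cKO replicate 1 had the most fragments of all and the other cKO libraries overlapped with the controls. Their log2 fold changes were 0.91 ± 0.41 SE (edgeR adjusted p = 0.673) and 0.96 ± 0.50 SE (edgeR adjusted p = 0.781), and 0.31 and 0.30 without cKO replicate 1. *H2-Aa*, the alpha chain of I-A, did not pass the filter, with 8, 7 and 5 fragments in the controls against 22, 10 and 15 in the cKO libraries, which do not overlap.

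*H2-DMa*, a chain of the molecule that exchanges class II peptides, had the highest mean FPKM of the class II genes, with 6.31, 4.72 and 5.37 CPM in the controls and 6.18, 4.60 and 6.71 CPM in the cKO libraries. It had a log2 fold change of 0.09 ± 0.17 SE (edgeR adjusted p = 0.959), and the libraries overlapped throughout. *Ciita*, whose protein activates class II genes, had 2.05, 2.04 and 2.34 CPM in the controls and 2.17, 1.46 and 2.29 CPM in the cKO libraries (log2 fold change -0.13 ± 0.25 SE, edgeR adjusted p = 0.965). These values are of the locus on the strand of *Ciita* (chromosome 16, 10480072 to 10527564). The name lies on 4 loci, and the one with the most fragments is an antisense transcript within the gene, with 4.34, 3.34 and 3.10 CPM in the controls and 1.59, 4.30 and 3.55 CPM in the cKO libraries (log2 fold change -0.18 ± 0.27 SE, edgeR adjusted p = 0.951).

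**Figure D2:**
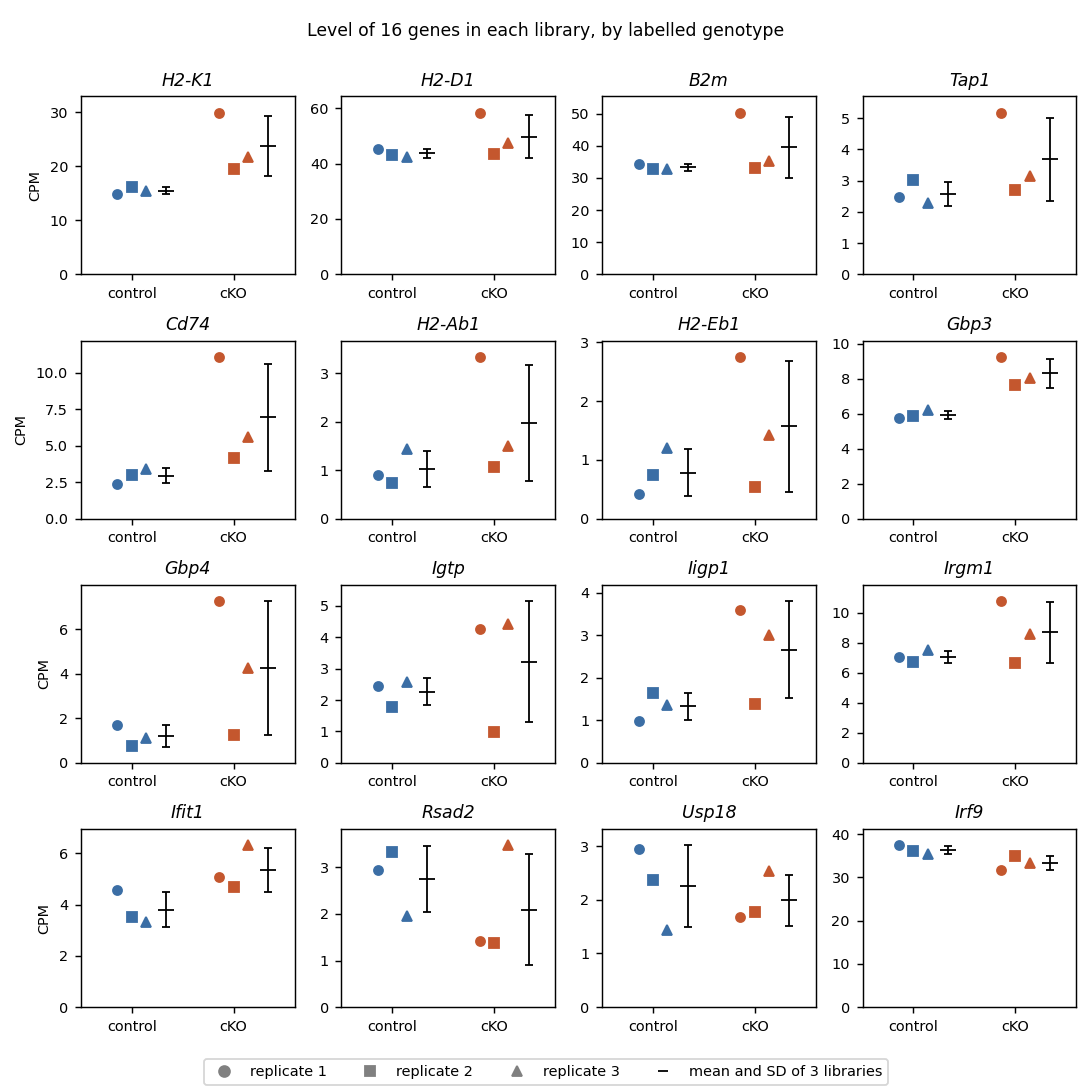
Level in CPM (y axis, linear) of 16 of the genes in each library, by labelled genotype (x axis), with a symbol for each replicate number and the mean with its SD over 3 libraries beside the points. The circle of cKO replicate 1 is at the top for class I and class II genes and for *Gbp4*, *Iigp1* and *Irgm1*, but not for *Rsad2*, *Usp18* or *Irf9*.

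All 9 GTPases were tested and all had a log2 fold change above 0, with a median of 0.38. *Gbp4*, a guanylate-binding protein (chromosome 5, 105115767 to 105139586), spread the most of the 38 tested genes, with a highest value 9.91 times its lowest. It had 1.72, 0.733 and 1.13 CPM in the controls and 7.26, 1.23 and 4.26 CPM in the cKO libraries. cKO replicates 1 and 3 lay above all other libraries and cKO replicate 2 lay within the controls. Its log2 fold change was 1.81 ± 0.47 SE (edgeR adjusted p = 0.137), 1.19 without cKO replicate 1 (edgeR adjusted p = 0.316) and 2.26 without cKO replicate 2 (edgeR adjusted p = 0.00289). The adjusted p ran from 0.00267 to 0.966 over all alternatives that tested it. *Iigp1*, an immunity-related GTPase (chromosome 18, 60376029 to 60392629), followed the same order of libraries, with 0.983, 1.63 and 1.36 CPM in the controls and 3.59, 1.38 and 3.00 CPM in the cKO libraries (log2 fold change 0.99 ± 0.33 SE, edgeR adjusted p = 0.408).

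*Igtp*, another immunity-related GTPase (chromosome 11, 58199556 to 58207592), had both its highest and its lowest values among the cKO libraries. It had 4.26 and 4.42 CPM in cKO replicates 1 and 3 and 0.998 CPM in cKO replicate 2, the lowest of the 6 libraries, against 2.46, 1.79 and 2.57 CPM in the controls. Its log2 fold change was 0.49 ± 0.37 SE (edgeR adjusted p = 0.886). *Gbp3* (chromosome 3, 142560052 to 142573212) was the only one of the 9 GTPases whose genotypes did not overlap. It had 5.73, 5.86 and 6.197 CPM in the controls and 9.26, 7.67 and 8.05 CPM in the cKO libraries. Its means were 5.93 ± 0.238 CPM and 8.33 ± 0.831 CPM (SD, n = 3 each), which gave a log2 fold change of 0.49 ± 0.13 SE (edgeR adjusted p = 0.186), and 0.40 without cKO replicate 1.

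*Irgm1*, a regulator of the other immunity-related GTPases and the most abundant of the 9, had 7.05, 6.68 and 7.48 CPM in the controls and 10.8, 6.68 and 8.61 CPM in the cKO libraries (log2 fold change 0.29 ± 0.16 SE, edgeR adjusted p = 0.794). *Irgm2* and *Gbp2* were also highest in cKO replicate 1, with 6.26 CPM against 2.15 to 3.77 CPM and 4.84 CPM against 2.38 to 2.72 CPM in the other 5 libraries. Their log2 fold changes were 0.30 and 0.38 with all libraries, and -0.17 and 0.05 without that one. *Gbp6* and *Gbp7* had log2 fold changes of 0.26 and 0.05, with adjusted p of 0.906 and 0.977 from edgeR. The guanylate-binding proteins lie in clusters of similar genes, so that fragments may have been split among copies.

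The type I effectors did not share this order of libraries. Their median log2 fold change was 0.05 over the 10 that were tested, and 7 of 10 were above 0. *Ifit1*, an antiviral RNA-binding protein (chromosome 19, 34640889 to 34650009), had 4.59, 3.50 and 3.32 CPM in the controls and 5.09, 4.68 and 6.32 CPM in the cKO libraries. The groups did not overlap and the highest library was cKO replicate 3. Its log2 fold change was 0.50 ± 0.18 SE (edgeR adjusted p = 0.512), and 0.53 without cKO replicate 1.

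*Rsad2* (viperin), which blocks viral replication, had 2.95, 3.34 and 1.96 CPM in the controls and 1.42, 1.38 and 3.47 CPM in the cKO libraries (log2 fold change -0.38 ± 0.32 SE, edgeR adjusted p = 0.9). cKO replicate 1 was thus among the 2 lowest libraries for this gene. *Usp18*, which removes Isg15 from proteins, had 2.95, 2.36 and 1.44 CPM in the controls and 1.67, 1.77 and 2.53 CPM in the cKO libraries (log2 fold change -0.17 ± 0.29 SE, edgeR adjusted p = 0.954). In both genes the genotypes overlapped, and control replicate 3 lay below the other controls.

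The effectors of the highest mean FPKM overlapped between the genotypes. *Ifi27* had 15.6, 13.6 and 12.2 CPM in the controls and 16.4, 15.0 and 16.03 CPM in the cKO libraries (log2 fold change 0.20 ± 0.11 SE, edgeR adjusted p = 0.791). *Xaf1*, a regulator of cell death, had 9.09, 9.12 and 6.57 CPM in the controls and 9.01, 8.59 and 10.7 CPM in the cKO libraries (log2 fold change 0.20 ± 0.14 SE, edgeR adjusted p = 0.881). The log2 fold changes of *Ifit3*, *Oasl2*, *Rtp4*, *Ifih1* and *Bst2* were 0.03, 0.02, 0.20, 0.07 and -0.28, with adjusted p of 0.93 to 0.993 from edgeR. *Isg15*, the ubiquitin-like modifier, had 9 to 11 fragments in the controls and 10 in every cKO library, and *Zbp1* had at most 4 fragments. Neither was tested.

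The 4 transcription factors had a median log2 fold change of 0.03, and none was called. *Stat2* (chromosome 10, 128270539 to 128292891) had 25.8, 24.8 and 19.5 CPM in the controls and 22.8, 22.7 and 26.1 CPM in the cKO libraries, which overlapped (log2 fold change 0.03 ± 0.10 SE, edgeR adjusted p = 0.979). *Irf7*, the amplifier of type I interferon, had 2.46, 1.95 and 1.81 CPM in the controls and 2.34, 2.30 and 2.05 CPM in the cKO libraries (log2 fold change 0.11 ± 0.24 SE, edgeR adjusted p = 0.969). *Irf1*, which acts downstream of interferon gamma, had 3.17 to 4.07 CPM in the controls and 3.22 to 4.09 CPM in the cKO libraries. The merged locus of *Irf9* and *Rnf31* (chromosome 14, 55591686 to 55610140) had 37.4, 36.2 and 35.4 CPM in the controls and 31.6, 34.9 and 33.4 CPM in the cKO libraries, with no overlap (log2 fold change -0.12 ± 0.07 SE, edgeR adjusted p = 0.795). In FPKM the same locus had 7.05 to 8.58 in the controls and 7.34 to 8.39 in the cKO libraries, and its direction was the opposite (log2 fold change 0.07 from limma on log2(FPKM + 1)).

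**Figure D3:**
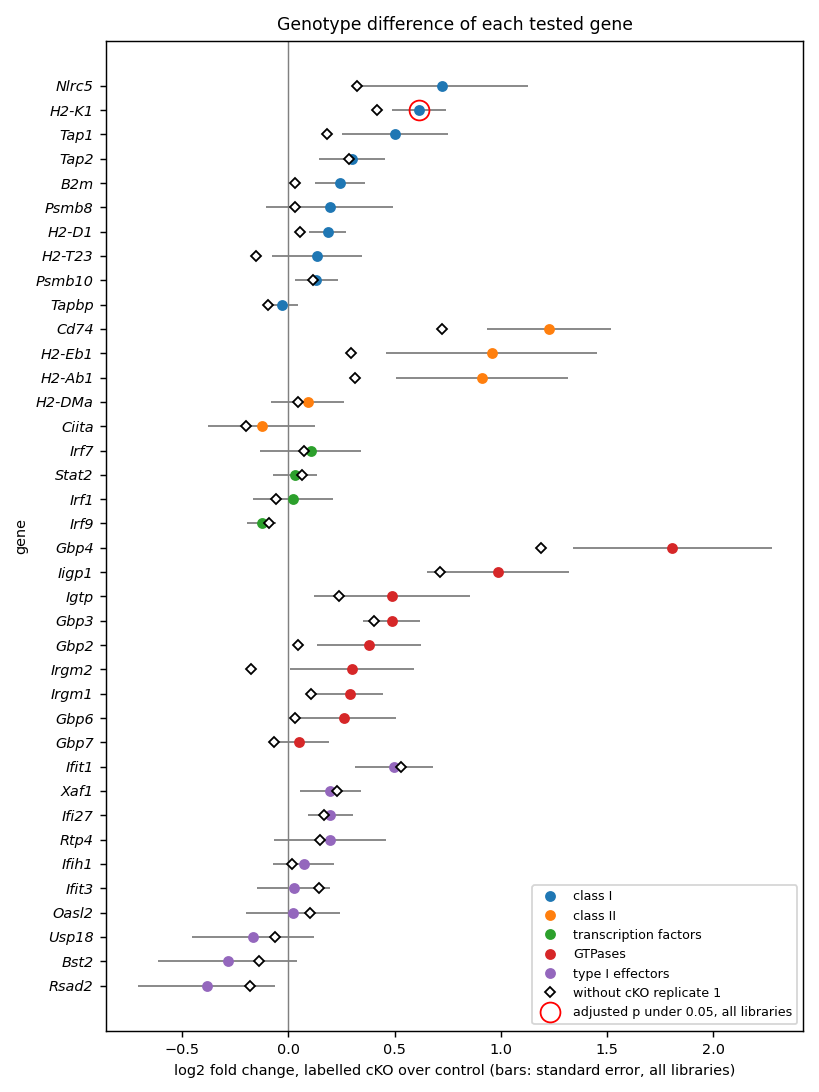
Log2 fold change of each tested gene, labelled cKO over control (x axis), ordered within roles, with its standard error over all 6 libraries. Open diamonds give the log2 fold change without cKO replicate 1, which lies closer to 0 for most class I, class II and GTPase genes, and the ring marks *H2-K1*, with an adjusted p of 0.0388 from edgeR.

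Set side by side, the mean log2 CPM of the roles separated the libraries as follows. The 10 class I genes lay 0.58, -0.03 and 0.25 from the control mean in cKO replicates 1, 2 and 3, with controls from -0.07 to 0.04. The 5 class II genes lay 1.08, -0.10 and 0.53 from it, with controls from -0.17 to 0.29. The 9 GTPases lay 0.97, -0.16 and 0.56 from it, with controls from -0.11 to 0.08. In these 3 roles cKO replicates 1 and 3 were the highest libraries, and cKO replicate 2 lay inside the range of the controls or, for the GTPases, just below it.

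The other roles had another order. The 10 type I effectors lay -0.08, -0.10 and 0.29 from the control mean in cKO replicates 1, 2 and 3, and the controls themselves ran from -0.26 to 0.23. The 4 transcription factors lay 0.03, -0.02 and 0.02 from it, inside controls that ran from -0.16 to 0.11. The spread among controls was thus wider for the type I effectors (SD 0.247) than for the GTPases (SD 0.098) and class I genes (SD 0.0566), and similar for class II genes (SD 0.249). These means were not tested.

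**Figure D4:**
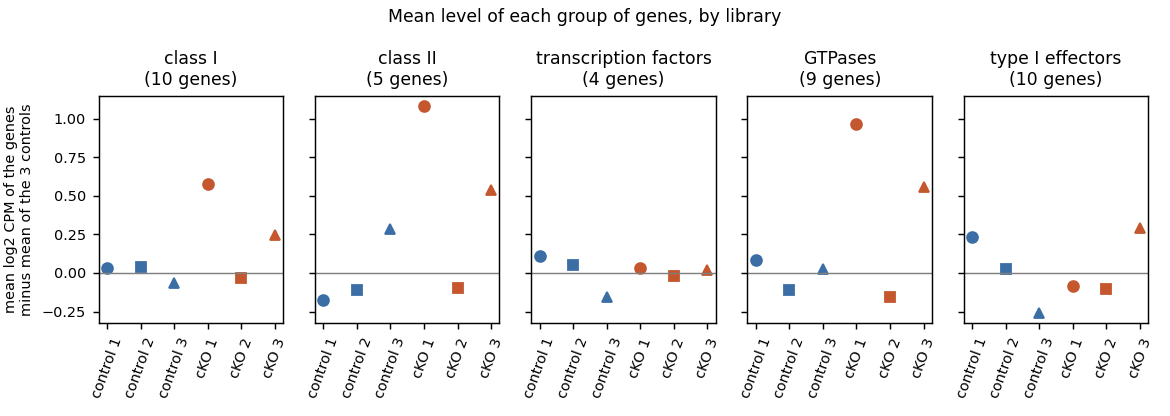
Mean log2 CPM of the tested genes of each role by library, relative to the mean of the 3 controls (y axis), for the 6 libraries (x axis, control in blue and cKO in orange). cKO replicates 1 and 3 are the 2 highest libraries for class I, class II and the GTPases, whereas for type I effectors cKO replicate 3 and control replicate 1 are the highest.

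Without cKO replicate 1 none of the 42 genes was called by edgeR, while 0.0657% of all loci were called higher. The median log2 fold change over the tested genes was then 0.09, and 28 of 38 were above 0, against 50.4% of all loci. The medians fell to 0.09 for class I, 0.30 for class II and 0.11 for the GTPases, and stood at 0.12 for the type I effectors. At an unadjusted p of 0.05 there were 5 genes higher (*H2-K1*, *Cd74*, *Gbp3*, *Gbp4* and *Ifit1*) and 0 lower, or 13.2% and 0% against 4.46% and 4.93% of all loci. Without cKO replicate 3 none of the 42 genes was called by edgeR either, while 0.00442% of all loci were called higher. The median over the 38 genes was 0.17, with 27 above 0, and the medians were 0.26 for class I, 1.02 for class II, 0.37 for the GTPases and -0.01 for the type I effectors. At an unadjusted p of 0.05 there were 9 genes higher and 1 lower, against 2.53% and 4.12% of all loci.

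Lists of 120 further loci were read, of genes upstream of the response and of other presentation genes, GTPases and effectors. Of 9 interferon genes, *Ifnb1*, *Ifna1*, *Ifna2*, *Ifna4*, *Ifng*, *Ifne*, *Ifnl2* and *Ifnl3* had 0 fragments in every library, which allows up to 3 fragments or 0.227 to 0.250 CPM per library (counting error only), and *Ifnk* had 1 to 6 fragments. The receptors and their signalling partners were measured in full, with 13 of 13 genes tested and none called. *Ptpn2*, a phosphatase that restrains this signalling, had 24.1 to 26.8 CPM in the controls and 19.3 to 22.02 CPM in the cKO libraries, without overlap (log2 fold change -0.26 ± 0.09 SE, edgeR adjusted p = 0.405). Among 11 tested genes of nucleic acid sensing and its signalling the smallest p was that of *Irf3*, with 19.0 to 20.8 CPM in the controls and 14.8 to 16.5 CPM in the cKO libraries (log2 fold change -0.33 ± 0.09 SE, edgeR adjusted p = 0.186).

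None of the further genes of presentation was called by edgeR. Of 17 tested loci of class I and its loading, 1 was higher and 1 lower at an unadjusted p of 0.05. *H2-M3*, a nonclassical heavy chain, had 1.38 to 1.72 CPM in the controls and 3.51, 2.15 and 1.82 CPM in the cKO libraries (log2 fold change 0.64 ± 0.28 SE, edgeR adjusted p = 0.677), and was again highest in cKO replicate 1. *Mr1*, which presents vitamin metabolites, had 5.67 to 6.27 CPM in the controls and 3.76 to 5.09 CPM in the cKO libraries (log2 fold change -0.42 ± 0.16 SE, edgeR adjusted p = 0.544). Of 8 tested loci of class II and its loading, 3 had a log2 fold change above 0. *Creb1*, which binds class II promoters among many others, had the smallest p of them, with a log2 fold change of -0.14 ± 0.06 SE (edgeR adjusted p = 0.649).

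Of 6 tested loci of other interferon GTPases none was called by edgeR, and 5 had a log2 fold change above 0. Some of the untested ones had their 2 highest counts in cKO replicates 1 and 3. *Tgtp2* had 3, 1 and 0 fragments in the controls against 19, 3 and 16 in the cKO libraries, *Tgtp1* had 4, 3 and 2 against 8, 3 and 15, and *Gm12250* had 5, 6 and 1 against 11, 4 and 9. None of these 3 was tested, and they were chosen after their values were seen. *Gbp5* had 1.31, 0.815 and 1.06 CPM in the controls and 1.42, 0.767 and 3.32 CPM in the cKO libraries (log2 fold change 0.78 ± 0.43 SE, edgeR adjusted p = 0.797). Of 29 tested other effectors 0 were called and 23 had a log2 fold change above 0, with *Trim25* (0.31 ± 0.14 SE, edgeR adjusted p = 0.682) and *Oas1b* (-0.86 ± 0.44 SE, edgeR adjusted p = 0.768) at the smallest p. Over all 83 tested loci of these lists the median log2 fold change was 0.06 and 58 were above 0, against 51.4% of all loci. At an unadjusted p of 0.05, 2 were higher and 4 lower, which is close to the 2.91% and 4.03% of all loci.

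Markers of cells that carry these genes were read beside them, and in bulk RNA more cells of a type and more RNA per cell cannot be told apart. The 6 measured markers of monocytes and neutrophils summed to 1.64, 2.04 and 1.74 CPM in the controls and to 8.18, 1.53 and 4.58 CPM in the cKO libraries, which is the order of the class II genes and GTPases. Among them were *S100a8* with 4, 5 and 4 fragments in the controls against 24, 7 and 10 in the cKO libraries, *S100a9* with 9, 9 and 9 against 39, 4 and 19, and *Ngp* with 5, 7 and 8 against 23, 6 and 15. These named genes held most of the 98 and 58 fragments of the list in cKO replicates 1 and 3, so the order is mainly theirs. *Ly6c2*, *Ccr2* and *Plac8* made up the rest, and together they had the most fragments in cKO replicate 3. None of the 6 passed the filter, and none was at 0 in all libraries. The part of these cells in the values of the 42 genes was not tested.

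Other immune and vascular markers did not follow this order. The 12 microglia markers summed to 247 to 265 CPM in the controls and to 289, 257 and 238 CPM in cKO replicates 1, 2 and 3, with 0 of 12 called and a median log2 fold change of -0.0017. The 8 markers of border macrophages summed to 21.1 to 27.8 CPM in the controls and 20.8 to 24.6 CPM in the cKO libraries, and the 10 endothelial markers to 320 to 333 CPM and 316 to 328 CPM. The 9 measured markers of T and NK cells summed to 0.737 to 1.28 CPM in the controls and 1.09 to 1.5 CPM in the cKO libraries, with *Nkg7* and *Ncr1* at 0 fragments everywhere and *Cd3e* at 0 or 1. The 5 measured B cell markers summed to 2.95 to 4.24 CPM and 3.40 to 3.84 CPM. The 7 markers of dendritic cells summed to 47.5 to 50.6 CPM in the controls and 39.98 to 44.7 CPM in the cKO libraries, with *Cd209a* at 0 in every library. Markers of the choroid plexus, with 653, 515 and 666 CPM in the cKO libraries against 407 to 561 CPM, were also highest in cKO replicates 1 and 3. Those of red blood cells summed to 187, 296 and 183 CPM in the controls and to 300, 168 and 216 CPM in the cKO libraries. They were thus highest in cKO replicate 1 and nearly as high in control replicate 2. The 7 markers of meningeal fibroblasts summed to 216 to 377 CPM in the controls and 221 to 259 CPM in the cKO libraries, with a median log2 fold change of -0.12 and 2 of 7 above 0. Among them *Mgp*, a matrix gene of vessels and meninges, was called higher (log2 fold change 0.63 ± 0.13 SE, edgeR adjusted p = 0.0419), and 2 were lower at an unadjusted p of 0.05. Their part was not tested either.

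**Figure D5:**
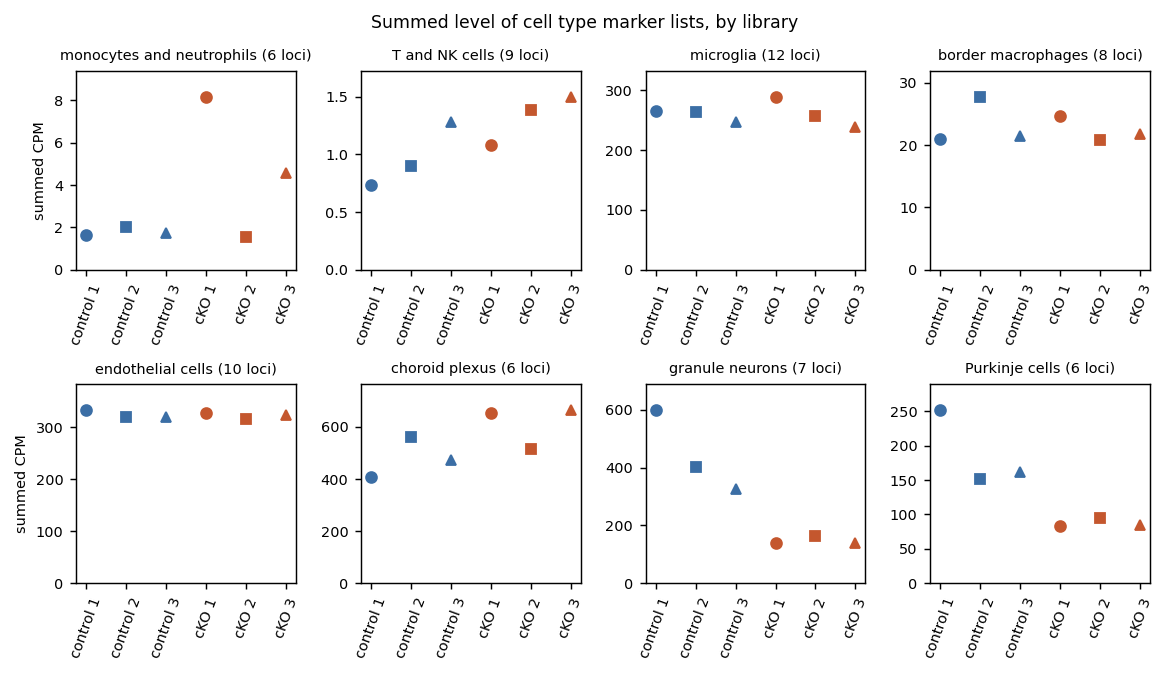
Summed CPM of the loci of 8 lists of cell type markers (y axes, linear from 0) in each library (x axis, control in blue and cKO in orange). The sum for monocytes and neutrophils is 8.18 CPM in cKO replicate 1 and 4.58 CPM in cKO replicate 3, against at most 2.04 CPM in the other 4 libraries. Microglia sums run from 238 CPM in cKO replicate 3 to 289 CPM in cKO replicate 1, and endothelial sums from 316 to 333 CPM.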

How the data were processed

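Strand-aware total RNA libraries from pools of brainstem RNA were sequenced by the authors, with 3 libraries per genotype. Per the labels and the study's methods, bases were called with CASAVA 1.6, reads were aligned to mm10 with TopHat2 2.0.9, and transcripts were assembled and merged with Cufflinks 2.2.0. The deposited table gives the fragment counts that the authors obtained with Cuffdiff, as raw whole numbers for each locus and library. It also gives FPKM values that the authors scaled between libraries with Cuffdiff. The deposited assembly gives exon coordinates and gene names. Strand settings of aligner and counter are not given in the sources used here. 2 columns of rescaled fragments were not used.

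Fragment counts of 34632 loci were tested with edgeR 4.0.16 (R 4.3.3, quasi-likelihood, TMM, filterByExpr by genotype, prior count 2), with Benjamini-Hochberg adjustment over 21854 loci and a threshold of 0.05. The fit was tested on simulated data. Alternatives were DESeq2 1.42.0, limma 3.58.1 on log2(FPKM + 1) and log2(FPKM + 0.1) (limited to loci that reached 1 FPKM in 3 libraries), other scalings and filters, each library left out, a replicate block, a Y-linked covariate and loci of a name summed. Members and gene lists were chosen with earlier results of these data known. Values in every library are given for members that were called, members whose genotypes did not overlap in CPM, the 2 of highest mean FPKM and the 2 of largest CPM range in each role, and up to 3 genes of smallest p in each other list. Other genes named singly were picked with their values in view. For *Ciita* the sense locus was used in place of the antisense one that the rule gave. Promoter windows come from RefSeq (GRCm38.p6), with no entry used for *Tap2*, *Nlrc5*, *Cd74*, *Ciita*, *H2-Ab1*, *Gbp4*, *Gbp6*, *Iigp1*, *Ifi27*, *Usp18*, *Rtp4* and *Zbp1*. The floors given for genes with 0 fragments cover counting error only. Standard errors come from the edgeR quasi-likelihood fit, and SDs from the libraries of a genotype. Both take in the spread between libraries. Tables and plots were made with pandas 2.3.3, numpy 2.4.6 and matplotlib 3.10.9 in Python 3.11.15. 1 gene of the signalling list is not reported here by name.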

Additional observations from a re-analysis of the deposited data

How the results depend on the processing

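Of the 38 tested genes, 1 was called higher with all libraries. Other settings tested other numbers of the 42 genes. With limma on log2(FPKM + 1) and on log2(FPKM + 0.1) 0 and 0 of 31 tested were called. With at least 50 fragments in 3 libraries 0 of 19 were called, and with the Y-linked covariate 0 of 38. Without a filter 3 of 42 were called (*H2-K1*, *Cd74* and *Gbp4*), and without single libraries 0 to 3 of the 39 or 40 tested. Further genes of the pathway called higher numbered 0, but 1 without a filter and 0 to 1 without single libraries, in both cases *Tgtp2*. Loci called higher numbered 6 with all libraries, 0 and 0 with limma on the 2 FPKM scales, 27 without a filter, 1 with at least 50 fragments, 13 with the Y-linked covariate and 0 to 15 without single libraries. Loci called lower numbered 110, and 0 and 1 with limma, 194 without a filter and 42 to 126 without single libraries. The cause was not tested.

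Without cKO replicate 1 the log2 fold change of 4 tested genes turned from above to below 0, to -0.17 for *Irgm2*, -0.15 for *H2-T23*, -0.07 for *Gbp7* and -0.06 for *Irf1*. *Irf9* was at 0.0651 and 0.0727 with limma on the 2 FPKM scales. With the Y-linked covariate *Lgmn* was at -0.0168 and *Ifi47* at -0.00166. Without single libraries *H2-DMa* ran from -0.0254 to 0.243, *Stat2* from -0.0894 to 0.109, *Usp18* from -0.418 to 0.0760 and *Lgmn* from -0.00992 to 0.0755. With the Y-linked covariate the medians were 0.23 for class II, 0.08 for class I, 0.09 for the GTPases and 0.08 for all tested genes, and *H2-K1* was at 0.39. This covariate mainly sets apart cKO replicate 1, the library with almost no Y-linked fragments. It is thus not independent of the fit without that library, and it cannot tell sex apart from that library. The median of the transcription factors was -0.08 without control replicate 3.

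The replicate numbers did not pair the libraries: deviations of same-numbered libraries correlated at 0.05, -0.18 and 0.03. With the replicate block 3 of the 38 genes were called (*H2-K1*, *Cd74* and *Gbp4*). DESeq2, library size alone, upper-quartile factors and summed loci of a name each called *H2-K1* alone.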
